A study of Mus musculus with 16 samples.

Results

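The genes described here encode band 3, the anion exchanger of the red cell, and proteins that work beside it in gas exchange. They are the anion exchanger *Slc4a1*, the carbonic anhydrases *Car1*, *Car2*, *Car4* and *Car13*, the water channel *Aqp1* and the ammonia channel *Rhag*. The 7 genes were chosen by function and read by gene name from the 46078 genes listed for each library, and 6 of the 7 had at least 1 count. RNA was sequenced from polychromatic (Poly-E) and orthochromatic (Ortho-E) erythroblasts, successive late precursors of the red cell. They were sorted from steady-state mouse bone marrow on CD44 and Ter119, without dead cells. Wild-type *Ypel4*+/+ and homozygous mutant *Ypel4*-/- mice each gave 4 libraries of each population, 16 in all. The strain label is the same for every library, wild-type included. It gives a C57BL/6N line from WtsiIeg that carries the allele A<tm1Brd> and, at the targeted gene, Ypel4<tm1a(EUCOMM)Wtsi>, and the age of the mice is not given in the sources used here. The mutant allele is a gene trap carried in the germ line and so present in all cells of the mouse, not only in erythroid cells. As the study concerned band 3 on red cells of these mice, one question for the RNA was whether *Slc4a1* and its partners differed between genotypes, and another was how they differed between Poly-E and Ortho-E.

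Libraries held 2670173 to 12451234 counts on genes. Levels are given as CPM, the counts of a gene scaled to the total of its library. The targeted gene *Ypel4* measured 868 ± 129 CPM in wild-type Poly-E against 24.8 ± 8.55 CPM in the mutant, and 3163 ± 363 CPM in wild-type Ortho-E against 135 ± 6.04 CPM in the mutant (SD, n = 4 each). All 10 erythroid markers were detected in every group, with summed levels of 69062 to 84439 CPM in Poly-E and 129031 to 165664 CPM in Ortho-E. Markers of other cell types were low beside these. Summed levels of the 8 endothelial markers, of interest because *Aqp1* and *Car4* are also made in vessels, reached at most 2.38 CPM, with *Emcn* and *Esam* at 0. The 12 myeloid markers reached at most 12.9 CPM and the 10 megakaryocyte markers 119 CPM, with *Gp1bb* at 0. The 10 lymphoid markers, with *Cd3e* at 0, summed to 18.5 to 27.2 CPM in *Ypel4*+/+ Poly-E, to 24.7 to 39.9 CPM in *Ypel4*-/- Poly-E, and without overlap to 12.4 to 16.6 CPM in *Ypel4*+/+ against 19.9 to 29.1 CPM in *Ypel4*-/- Ortho-E. The 10 macrophage markers summed to 121 to 158 CPM in Poly-E and 71.3 to 93.4 CPM in Ortho-E. Most of that was *Slc40a1*, with means of 135 CPM in *Ypel4*+/+ and 138 CPM in *Ypel4*-/- Poly-E. In Ortho-E its means were 68.9 CPM in *Ypel4*+/+ and 72.5 CPM in *Ypel4*-/- cells. The part of other cell types in the results was not tested. The 8 osteoclast markers, listed because osteoclasts use *Car2*, summed to 80.6 to 112 CPM in Poly-E and 10.8 to 18.4 CPM in Ortho-E. Nearly all of that was *Acp5*, while *Ocstamp*, *Dcstamp* and *Calcr* were at 0. Bulk counts cannot tell a change in RNA per cell from a change in the mix of cells within a sorted gate.

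Carbon dioxide enters the red cell in tissues and is hydrated there by carbonic anhydrase to bicarbonate and a proton. Band 3 then carries the bicarbonate out in exchange for chloride, and the steps run in reverse in the lung. Band 3 is also the chief anchor of the membrane skeleton, to which it is tied through ankyrin, protein 4.2 and protein 4.1. *Aqp1* and *Rhag* encode channels for water and for ammonia that can also pass dissolved gas, and the product of *Rhag* sits in the membrane in a complex with Rh protein and band 3.

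The positions of the genes were read from the deposited counts on GRCm38. *Slc4a1* (ENSMUSG00000006574) lies on chromosome 11 from 102348824 to 102366203 on the minus strand. *Rhag* (ENSMUSG00000023926) lies on chromosome 17 from 40811126 to 40840754, and *Aqp1* (ENSMUSG00000004655) on chromosome 6 from 55336432 to 55348555, both on the plus strand. *Car4* (ENSMUSG00000000805) lies on chromosome 11 from 84957786 to 84966044 on the plus strand. The other carbonic anhydrase genes form a cluster of 259 kb on chromosome 3, with *Car13* (ENSMUSG00000027555, 14641727 to 14663002, plus strand), *Car1* (ENSMUSG00000027556, 14766216 to 14808368, minus strand) and *Car2* (ENSMUSG00000027562, 14886273 to 14900770, plus strand) in this order. *Car1* is the only one of the 7 whose span overlaps another listed gene, *Gm16399*, which had 29 counts over the 16 libraries.

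RefSeq's table of promoters on GRCm38.p6 held 3 of the 7 genes, *Car4*, *Aqp1* and *Rhag*. The stretches before *Rhag* and *Aqp1* are shown because the shares of counts of these channel genes went opposite ways between Poly-E and Ortho-E. *Rhag* is shown from chr17:40810899-40811125 and *Aqp1* from chr6:55336049-55336298, both on the plus strand and read 5′ to 3′. For *Rhag* the last 23 bases before the RefSeq start, which lie inside the counted gene, are left off. Capitals mark matches on either strand to GATAAG, a motif of GATA factors, or to CCNCNCCC, a motif of KLF factors.
Rhag: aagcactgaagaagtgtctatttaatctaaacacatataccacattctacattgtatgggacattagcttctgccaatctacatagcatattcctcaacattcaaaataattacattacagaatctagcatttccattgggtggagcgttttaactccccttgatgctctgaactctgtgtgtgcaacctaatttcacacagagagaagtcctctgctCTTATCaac
Aqp1: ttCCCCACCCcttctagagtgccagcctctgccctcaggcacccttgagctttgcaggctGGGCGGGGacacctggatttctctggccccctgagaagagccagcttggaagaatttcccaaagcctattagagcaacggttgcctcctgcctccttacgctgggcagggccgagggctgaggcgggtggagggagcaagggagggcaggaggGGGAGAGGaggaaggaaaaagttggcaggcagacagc
The 250 bases before *Rhag* held 1 match to GATAAG, on the minus strand and beginning 32 bases before the RefSeq start, and 0 matches to CCNCNCCC. Those before *Aqp1* held 0 matches to GATAAG and 3 to CCNCNCCC, and those before *Car4* 0 and 1. Of 32851 promoters, 6.55% held GATAAG and 45.9% held CCNCNCCC in the same window. A match is a description of the letters and not of binding.

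*Slc4a1* was the most abundant of the 7 genes in every group and took 2.44% of all counts in *Ypel4*+/+ Poly-E. Its levels in the 4 *Ypel4*+/+ Poly-E libraries were 24670.5, 22938, 25429 and 24545.5 CPM, and those in *Ypel4*-/- Poly-E were 22561, 23724, 24109 and 25100.5 CPM. In Ortho-E they were 29744, 28320, 33079 and 31606 CPM in *Ypel4*+/+ and 30556, 32530, 31572 and 32698 CPM in *Ypel4*-/- cells. All 8 Ortho-E libraries lay above all 8 Poly-E libraries, and the genotypes overlapped within each population. How many of all genes separated in this way was not counted. In the edgeR tests on this scale described below, 10.4% of all genes in *Ypel4*+/+ and 11.2% in *Ypel4*-/- cells were called higher in Ortho-E. Per kb of exon, only 5 genes had a higher level in *Ypel4*-/- Ortho-E, and 6 in each of the other groups.

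*Rhag*, the channel of the Rh complex, was expressed at a lower level. Levels in *Ypel4*+/+ Poly-E were 1265, 1137, 988 and 990.04 CPM, and in *Ypel4*-/- Poly-E 1101, 1157, 988 and 901 CPM. In Ortho-E they were 1496, 1637, 1411 and 1376 CPM in *Ypel4*+/+ and 1640.05, 1407, 1346 and 1260 CPM in *Ypel4*-/- cells. The *Ypel4*-/- Ortho-E libraries overlapped the *Ypel4*+/+ Poly-E libraries by 1 library each, while within a genotype Ortho-E lay wholly above Poly-E.

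The water channel *Aqp1* ran the other way on this scale. Its Poly-E values were 5109, 5241, 4265 and 4342 CPM for *Ypel4*+/+ libraries, with 5308, 5583, 3915 and 4185 CPM for *Ypel4*-/- libraries. The Ortho-E values were 2552, 2435, 1919 and 1964 CPM in *Ypel4*+/+ and 2468, 2044, 1784 and 2022 CPM in *Ypel4*-/- cells. Every Ortho-E library lay below every Poly-E library, and among all genes by level per kb *Aqp1* went from rank 16 in Poly-E of both genotypes to rank 49 in *Ypel4*+/+ and 52 in *Ypel4*-/- Ortho-E. A fall was common on this scale. In the edgeR tests described below, 60.3% of all genes in *Ypel4*+/+ and 60.9% in *Ypel4*-/- cells were called lower in Ortho-E. The median log2 fold change of all genes was −1.45 and −1.47.

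*Car2*, the high-activity cytosolic carbonic anhydrase, was the main isoenzyme. It measured 11576, 10720.0, 7710 and 7370 CPM in *Ypel4*+/+ Poly-E, and 10005, 11486, 8351 and 7641 CPM in *Ypel4*-/- Poly-E. In Ortho-E the values were 12462, 11644, 8889 and 8715 CPM in *Ypel4*+/+ and 11687, 9621, 8955 and 8696 CPM in *Ypel4*-/- cells. All 4 groups overlapped, and the spread within a group exceeded the differences between group means.

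*Car1*, the low-activity cytosolic isoenzyme, was lower by far. Its Poly-E levels were 194, 201, 155 and 137 CPM in *Ypel4*+/+ and 256, 188, 194 and 167 CPM in *Ypel4*-/- cells. In Ortho-E only 22.8, 21.7, 13.8 and 17.6 CPM were left in *Ypel4*+/+ and 30.7, 12.4, 13.9 and 19.9 CPM in *Ypel4*-/- cells. The 8 Poly-E libraries lay above the 8 Ortho-E libraries without overlap, on a scale where 60.3% and 60.9% of all genes were called lower, as given for *Aqp1*. Of the 50-base stretches of *Car1* transcripts, 13.4% also occur in transcripts of *Gm5843*, so some of its reads may not have been counted.

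*Car13*, another cytosolic carbonic anhydrase, was close to the limit of detection. Counts in Poly-E were 4, 3, 7 and 15 in *Ypel4*+/+ and 8, 7, 9 and 23 in *Ypel4*-/- libraries, and in Ortho-E 1, 2, 3 and 5 in *Ypel4*+/+ and 3, 0, 0 and 0 in *Ypel4*-/- libraries. *Car4*, the membrane-bound carbonic anhydrase, had 0 counts in all 16 libraries, which allows up to 0.122 and 0.123 CPM in *Ypel4*+/+ and *Ypel4*-/- Poly-E and 0.167 and 0.148 CPM in Ortho-E (3 counts over each group). Such limits cover counting error only.

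**Figure D1:**
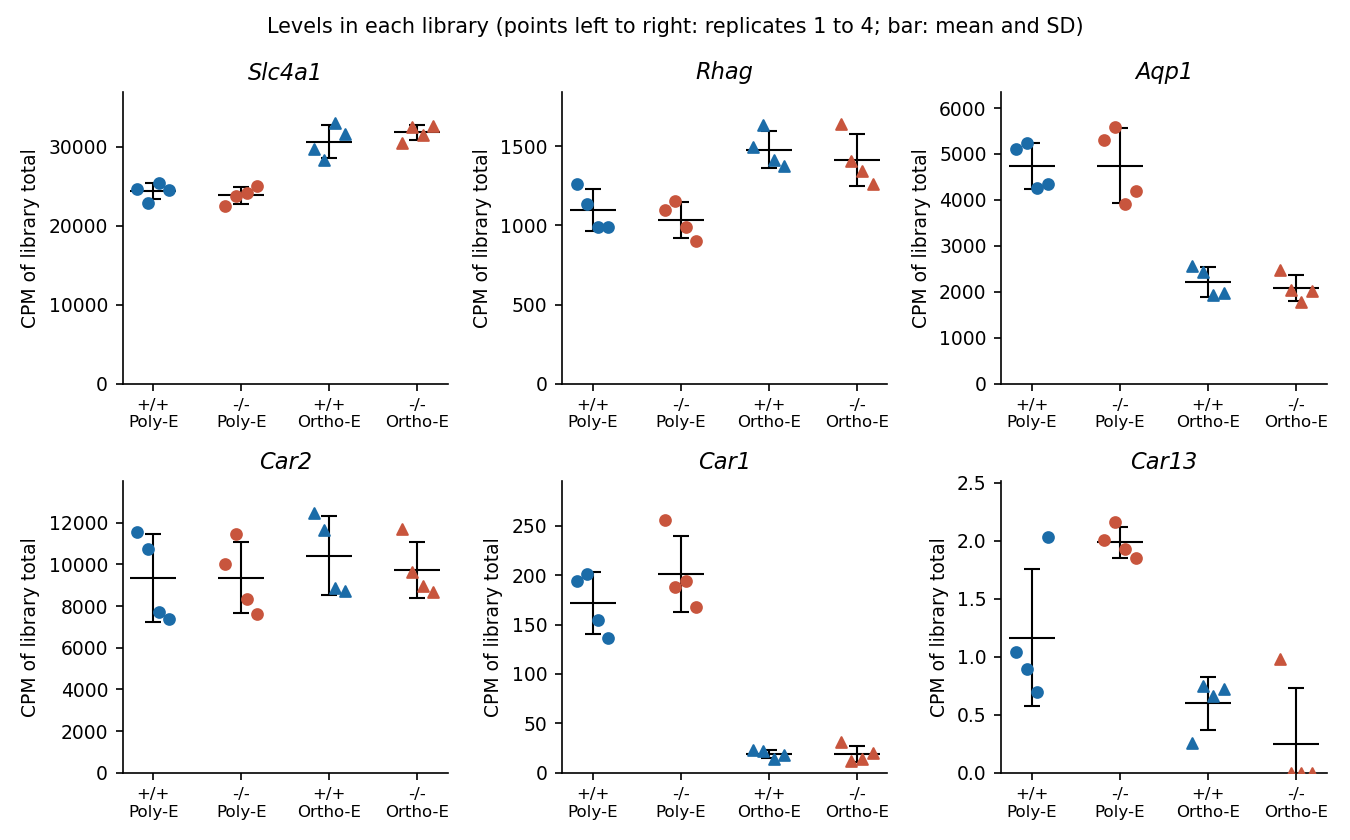
Levels of the 6 detected genes in CPM of the library total (vertical axes start at 0), with 1 point per library, the 4 groups side by side, and bars for the mean and SD; where a lower SD bar would pass 0 it is cut off there. *Slc4a1* and *Rhag* are higher and *Aqp1* and *Car1* lower in Ortho-E (triangles) than in Poly-E (circles), and the 2 genotypes overlap for all 6 genes.

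Compared per kb of exon, so that genes of different length can be set side by side, the order in Poly-E of both genotypes was *Slc4a1*, *Car2*, *Aqp1*, *Rhag*, *Car1*, *Car13* and *Car4*. Only *Slc4a1* and *Car2* overlapped there among neighbours in this order. In *Ypel4*+/+ Poly-E the mean level was 4988 ± 214 CPM per kb (SD, n = 4) for *Slc4a1* and 3858 ± 874 CPM per kb (SD, n = 4) for *Car2*. In Ortho-E the order was the same, *Slc4a1* and *Car2* no longer overlapped, and *Aqp1* and *Rhag* overlapped in *Ypel4*-/- cells.

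Differences between Ortho-E and Poly-E were tested within each genotype with edgeR's quasi-likelihood test, and a gene was called at a Benjamini-Hochberg adjusted p of at most 0.05 over all genes tested. The size of a fold depended on the scale. With TMM scaling, which sets a typical gene near 0, the median log2 fold change of all genes was −0.19 in *Ypel4*+/+ and −0.09 in *Ypel4*-/- cells. With library totals, the scale of the CPM values above, it was −1.45 in *Ypel4*+/+ and −1.47 in *Ypel4*-/- cells, and the share of calls that were higher was 14.7% instead of 45.1% in *Ypel4*+/+ cells, and 15.5% instead of 48.4% in *Ypel4*-/- cells. Both are therefore given for each of the genes described here that was tested.

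Of the 6 genes tested in *Ypel4*+/+ cells, *Slc4a1*, *Rhag* and *Car2* were called higher in Ortho-E and *Car1* lower with TMM scaling. Of all 11747 genes tested, 26.4% were called higher and 32.1% lower. In *Ypel4*-/- cells the same genes were called in the same directions and *Car13* was called lower as well, while 29.5% of 11973 genes were called higher and 31.5% lower. With library totals 2 genes were called higher (*Slc4a1* and *Rhag*) and 2 lower (*Aqp1* and *Car1*) in *Ypel4*+/+ cells, against 10.4% and 60.3% of all genes. In *Ypel4*-/- cells 2 were called higher and 3 lower, *Car13* being the further one, against 11.2% and 60.9% of all genes. The 7 genes together took 3.97 ± 0.24% of counts in Poly-E against 4.48 ± 0.12% in Ortho-E of *Ypel4*+/+ cells, and 3.92 ± 0.21% against 4.51 ± 0.12% of *Ypel4*-/- cells (SD, n = 4 each).

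*Slc4a1* rose under both scalings. The log2 fold change was 1.61 (standard error 0.12, edgeR adjusted p = 4.984e-12) in *Ypel4*+/+ and 1.83 (0.11, adjusted p = 2.091e-16) in *Ypel4*-/- cells with TMM, and 0.33 (adjusted p = 0.002548) and 0.42 (adjusted p = 2.608e-05) with library totals. With TMM, 15.7% of genes tested in *Ypel4*+/+ and 15.0% in *Ypel4*-/- cells had a higher fold change. Same-numbered Ortho-E and Poly-E libraries gave a ratio of CPM from 1.21 to 1.37, above 1 in 8 of 8 pairs.

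*Rhag* moved with *Slc4a1*. Its log2 fold change was 1.71 (standard error 0.13, edgeR adjusted p = 5.96e-12) in *Ypel4*+/+ and 1.87 (0.12, adjusted p = 1.387e-15) in *Ypel4*-/- cells with TMM, and 0.43 and 0.45 with library totals (adjusted p = 0.001247 and 0.0004472). The CPM ratio within pairs ran from 1.18 to 1.49 and was above 1 in 8 of 8. *Slc4a1* and *Rhag* thus kept a ratio per kb of 10.8 ± 1.51 and 9.99 ± 1.37 (SD, n = 4 each) in *Ypel4*+/+ Poly-E and Ortho-E and of 11.1 ± 1.69 and 10.9 ± 1.46 (SD, n = 4 each) in *Ypel4*-/- cells, differences within the spread between libraries.

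*Car2* rose with TMM but not with library totals. The log2 fold change was 1.44 (standard error 0.17, edgeR adjusted p = 8.009e-07) in *Ypel4*+/+ and 1.48 (0.12, adjusted p = 8.208e-13) in *Ypel4*-/- cells, but 0.16 (adjusted p = 0.386) and 0.056 (adjusted p = 0.6809) with library totals. Its share of counts was higher in Ortho-E in 7 of 8 pairs, with ratios from 0.838 to 1.18. With TMM a higher fold change was found for 18.2% of genes in *Ypel4*+/+ and 19.8% in *Ypel4*-/- cells.

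*Aqp1* fell with library totals, with a log2 fold change of −1.10 (standard error 0.12, edgeR adjusted p = 5.828e-09) in *Ypel4*+/+ and −1.19 (0.12, adjusted p = 7.049e-10) in *Ypel4*-/- cells. With TMM it was 0.19 (0.13, adjusted p = 0.2296) and 0.23 (0.12, adjusted p = 0.09136), and with the replicate number as a block the *Ypel4*-/- value was 0.24 (adjusted p = 0.007311). Its CPM ratio within pairs lay between 0.366 and 0.50, below 1 in all 8. By TMM fold change it sat near the middle, with 41.2% of genes in *Ypel4*+/+ and 42.8% in *Ypel4*-/- cells at a higher fold change. In *Ypel4*+/+ cells the TMM value passed the threshold without Poly-E replicate 1 (0.37), and in *Ypel4*-/- cells without Poly-E replicate 2 (0.32).

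*Car1* fell under both scalings. The log2 fold change was −1.91 (standard error 0.17, edgeR adjusted p = 1.384e-09) in *Ypel4*+/+ and −1.99 (0.19, adjusted p = 5.875e-09) in *Ypel4*-/- cells with TMM, and −3.19 and −3.41 with library totals (adjusted p = 2.205e-14 and 1.525e-07). The CPM in Ortho-E was 0.0661 to 0.129 of that in the paired Poly-E library, and 89.0% of genes in *Ypel4*+/+ and 92.2% in *Ypel4*-/- cells had a higher fold change with TMM.

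*Car13* had 11 counts in *Ypel4*+/+ Ortho-E against 29 in Poly-E and 3 against 47 in *Ypel4*-/- cells. The ratio of its pooled CPM was 0.519 (95% exact counting interval 0.234 to 1.07) in *Ypel4*+/+ and 0.0769 (0.0153 to 0.239) in *Ypel4*-/- cells. With TMM the fitted log2 fold change was 0.32 (edgeR adjusted p = 0.672) and −2.19 (adjusted p = 0.0199), and the *Ypel4*-/- call was lost with DESeq2 (−2.15, adjusted p = 0.05297). That call was also lost without *Ypel4*-/- Ortho-E replicate 2 (−1.88), 3 (−1.85) or 4 (−1.52), each of which had 0 counts. With library totals the fitted log2 fold change was −0.94 in *Ypel4*+/+ and −3.49 in *Ypel4*-/- cells.

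**Figure D2:**
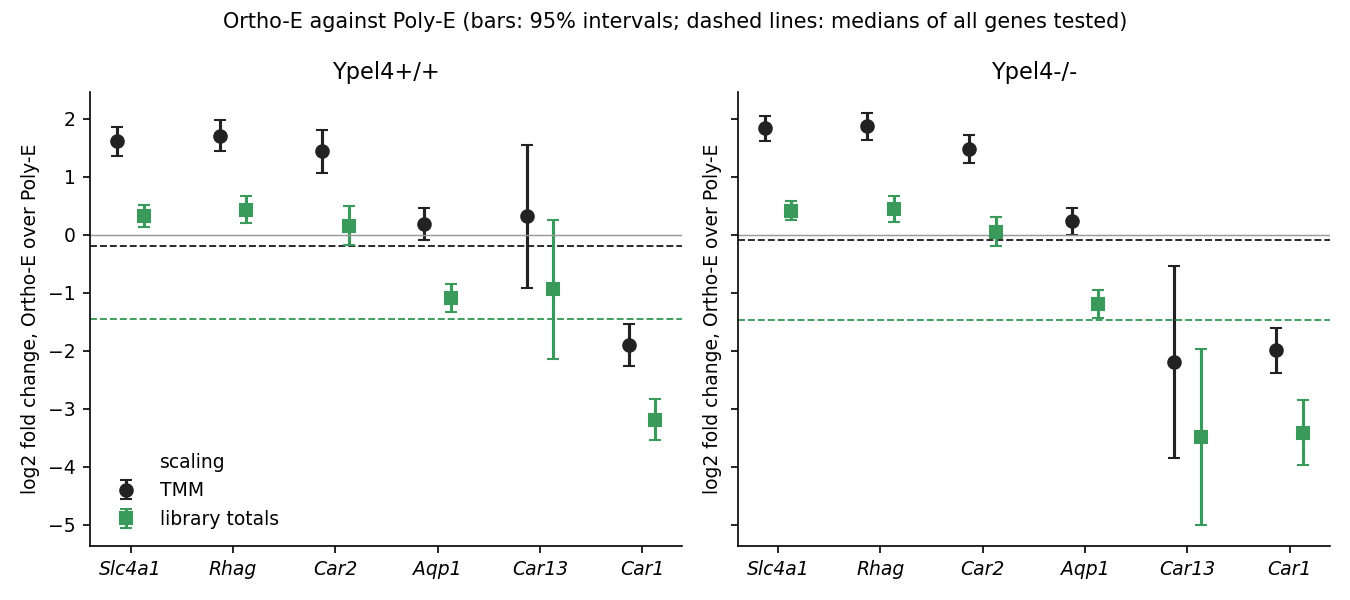
Log2 fold changes of Ortho-E over Poly-E for the 6 detected genes in *Ypel4*+/+ (left) and *Ypel4*-/- (right) cells, with TMM scaling (circles) and with library totals (squares), bars for 95% intervals, and dashed lines for the medians of all genes tested. *Slc4a1* and *Rhag* lie above 0 and *Car1* below 0 under both scalings, whereas *Aqp1* lies below 0 with library totals only.

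Ratios within a library need no scaling between libraries. *Car2* exceeded *Car1* per kb by 30.7, 27.4, 25.7 and 27.8 in *Ypel4*+/+ Poly-E and by 282, 276, 333 and 255 in *Ypel4*+/+ Ortho-E. In *Ypel4*-/- cells the Poly-E ratios were 20.1, 31.5, 22.1 and 23.5 and the Ortho-E ratios 196, 400, 332 and 225. The populations did not overlap, while the genotypes did, so that *Car1* made up 3.47 ± 0.24% of the summed *Car1*, *Car2* and *Car13* level per kb in *Ypel4*+/+ Poly-E, against 0.351 ± 0.038% in Ortho-E of the same genotype (SD, n = 4 each). For *Ypel4*-/- cells the shares were 4.05 ± 0.71% and 0.375 ± 0.12% (SD, n = 4 each). *Car2* accordingly made up 95.2% to 96.9% of that sum in Poly-E and 99.5% to 99.8% in Ortho-E.

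*Slc4a1* exceeded *Aqp1* per kb by 2.80 ± 0.39 (SD, n = 4) in *Ypel4*+/+ Poly-E and by 7.60 ± 1.58 (SD, n = 4) in *Ypel4*+/+ Ortho-E. The ratios in *Ypel4*-/- cells were 2.77 ± 0.57 and 8.35 ± 1.21 (SD, n = 4 each). No Ortho-E library, with ratios from 6.25 to 9.51, overlapped a Poly-E library, with ratios from 2.28 to 3.31. *Rhag* to *Aqp1* went likewise from 0.260 ± 0.014 to 0.756 ± 0.072 in *Ypel4*+/+ cells, and in the mutant from 0.248 ± 0.024 to 0.767 ± 0.062 (SD, n = 4 each).

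**Figure D3:**
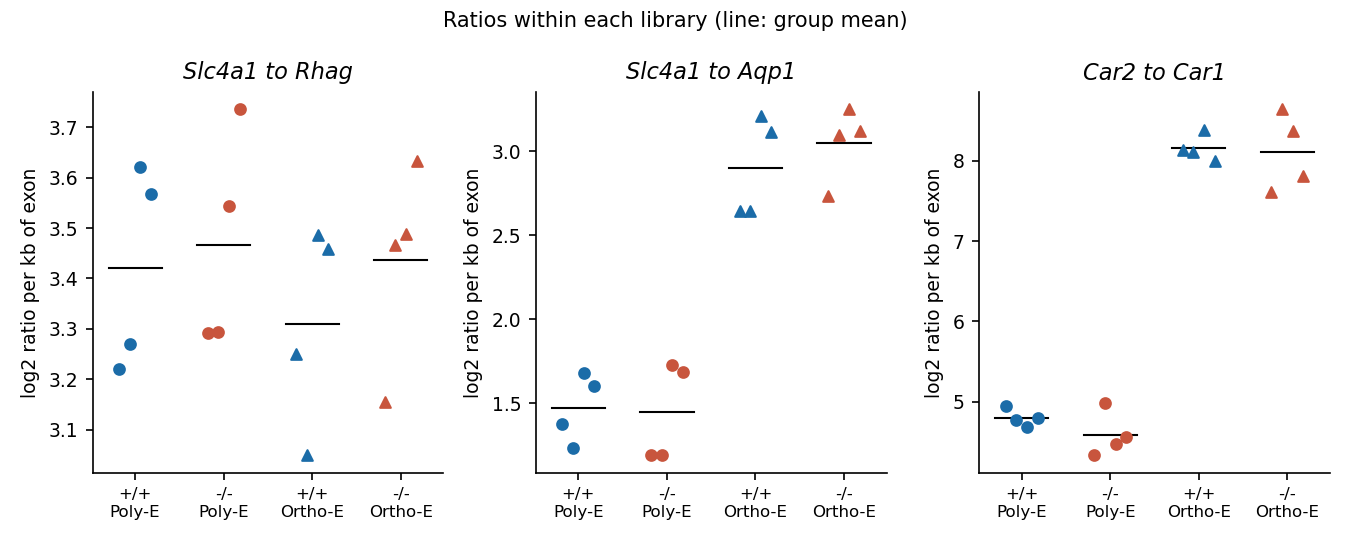
Log2 ratios per kb of exon within each of the 16 libraries (vertical axes do not start at 0), with 1 point per library and lines for group means. *Slc4a1* to *Rhag* overlaps in all 4 groups, while *Slc4a1* to *Aqp1* and *Car2* to *Car1* are higher in every Ortho-E library (triangles) than in every Poly-E library (circles).

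Between genotypes, edgeR called 0 of the 6 genes tested in Poly-E, and in Ortho-E likewise 0 of 6. The same was found with DESeq2, and 0 of 6 had an unadjusted p under 0.05 in either population with edgeR. Among all genes, 1 of 12395 in Poly-E (0.00807%), *Ypel4* itself, and 3 of 10521 in Ortho-E (0.0285%), *Ypel4*, *Gm19426* and *En2*, were called, named here after their values were seen. The study names *En2* as the splice acceptor of the gene trap and counts its change as foreseen. It cites reads at *Gm19426* where it considers called genes to be false positives. With the replicate number as a block 4 genes were called in Poly-E, and 0 of the 6 were among them. In neither population did the numbers clearly pair libraries of different genotype, and the main fits held no block.

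*Slc4a1* in *Ypel4*-/- cells was 0.943 times the *Ypel4*+/+ level in Poly-E (95% interval 0.823 to 1.08; edgeR adjusted p = 0.9998) and 1.01 times in Ortho-E (0.906 to 1.13; adjusted p = 0.9957). *Rhag* was at 0.911 (0.767 to 1.08) and 0.930 (0.809 to 1.07) of the *Ypel4*+/+ level in Poly-E and Ortho-E. The values for *Aqp1* were 0.964 (0.804 to 1.16) and 0.908 (0.772 to 1.07), and those for *Car2* 0.964 (0.744 to 1.25) and 0.904 (0.718 to 1.14). *Car1* had 1.13 (0.913 to 1.39) in Poly-E and, with a wider interval than these genes, 0.975 (0.684 to 1.39) in Ortho-E.

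*Car13* gave the widest intervals. In Poly-E it had 47 counts in *Ypel4*-/- and 29 in *Ypel4*+/+ libraries. The ratio of pooled CPM was 1.64 (95% exact counting interval 1.01 to 2.70), and the fitted ratio was 1.59 (95% interval 0.874 to 2.89). In Ortho-E it had 3 and 11 counts, and the ratio of pooled CPM was 0.243 (exact counting interval 0.0435 to 0.920), whereas the fitted interval, which also covers the spread between libraries, ran from 0.0694 to 1.18.

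**Figure D4:**
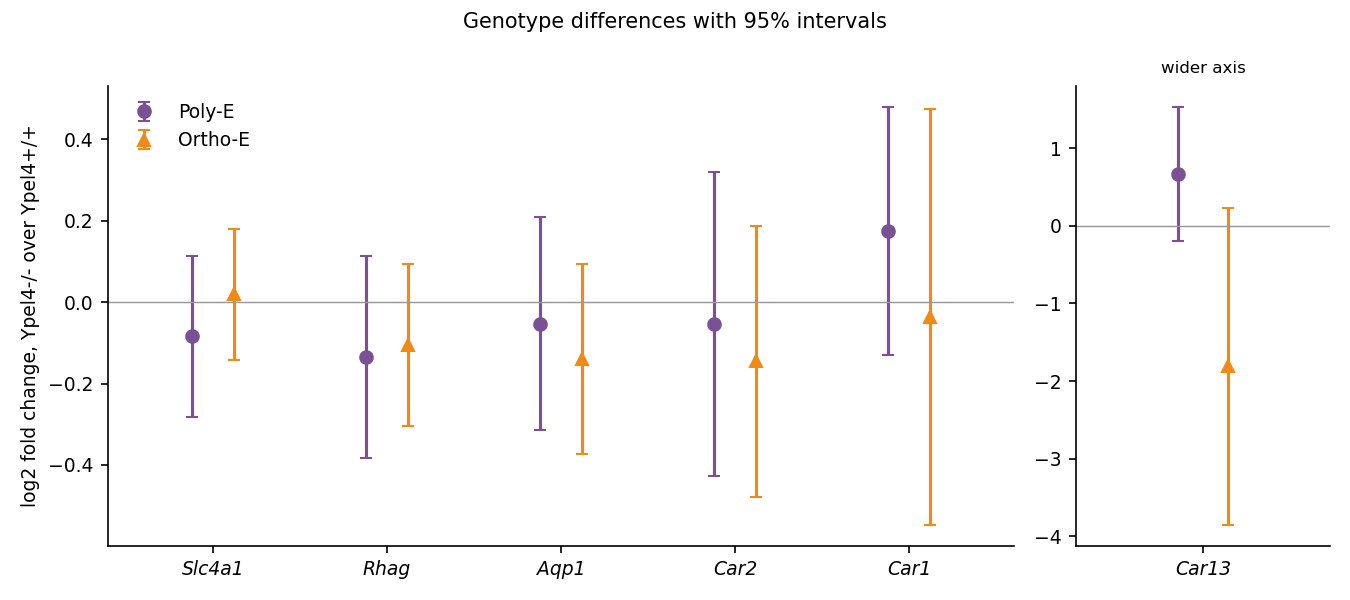
Log2 fold changes of *Ypel4*-/- over *Ypel4*+/+ for the 6 detected genes in Poly-E (circles) and Ortho-E (triangles) with TMM scaling and 95% intervals; *Car13* has a wider axis of its own. Each of the 12 intervals includes 0.

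The interaction of genotype and population asks whether the step from Poly-E to Ortho-E differed between genotypes, and 0 of 13318 genes (0.0%) were called with edgeR, 364 having an unadjusted p under 0.05 and 1 being called with DESeq2. It was fitted over all 16 libraries with 1 set of TMM factors, so that its steps are not those of the fits within a genotype given above. For *Slc4a1* the ratio of the 2 steps was 1.06 (95% interval 0.862 to 1.31), for *Rhag* 1.01 (0.797 to 1.27), for *Aqp1* 0.930 (0.723 to 1.20), for *Car2* 0.926 (0.669 to 1.28) and for *Car1* 0.857 (0.553 to 1.33). *Car13* alone among the 6 had an unadjusted p under 0.05 (ratio 0.165, interval 0.0385 to 0.704), with an edgeR adjusted p of 1.

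Replicates differed among themselves in a way that ran through the groups. *Car2*, *Aqp1* and *Rhag* were higher in both of replicates 1 and 2 than in both of replicates 3 and 4 in each of the 4 groups. Of 5061 genes with a mean of at least 10 CPM, 2.27% were higher in this way and 4.76% lower. The means of replicates 1 and 2 were 1.21 to 1.48 times those of 3 and 4 for *Car2*, 1.19 to 1.34 times for *Aqp1* and 1.12 to 1.21 times for *Rhag*. *Slc4a1* went the other way, at 0.898 to 0.982 times, without overlap in 2 of the 4 groups. The sources used here name no batch for these replicates. Depth split them too, as replicates 3 and 4 each held more counts than replicates 1 and 2 in all 4 groups. In *Ypel4*+/+ Poly-E the totals of replicates 1 to 4 were 3843335, 3348608, 10076589 and 7383540. What sets the 2 sets of replicates apart, depth included, was not tested. A term for these sets brought 0 of the 6 genes to a call between genotypes.

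Other members of the same families were then examined. Of 12 other carbonic anhydrases 5 had 0 counts and 4 more had under 10 counts over all libraries. *Car3*, a cytosolic isoenzyme best known from muscle, was the only one called between populations. Its level in *Ypel4*+/+ cells was 1.00 ± 0.081 CPM for Poly-E against 3.13 ± 0.52 CPM for Ortho-E (SD, n = 4 each), a log2 fold change of 2.87 (edgeR adjusted p = 2.589e-07) with TMM and 1.6 with library totals. In *Ypel4*-/- cells it was 2.75 with TMM and 1.36 with library totals, also called under both.

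Among 19 other bicarbonate and chloride exchangers that were matched to 1 row, the most abundant were *Slc4a2*, a paralog of *Slc4a1* that exchanges anions in many tissues, at 18.1 ± 2.88 CPM (SD, n = 4), and *Slc26a2*, a sulfate transporter, at 20.1 ± 1.77 CPM (SD, n = 4) in *Ypel4*+/+ Poly-E. With TMM 2 of 8 tested in *Ypel4*+/+ cells were called higher, *Slc4a5* (2.23) and *Slc26a1* (1.28), and 2 of 7 in *Ypel4*-/- cells, *Slc4a5* (3.35) and *Slc4a2* (0.49), where 26.4% and 29.5% of all genes were called higher. These counts depended on single libraries. In *Ypel4*+/+ cells the count was 0 without Ortho-E replicate 4, 1 without Ortho-E replicate 3 and 2 or 3 without any other library. In *Ypel4*-/- cells it was 1 without Poly-E replicate 1 or 2 or Ortho-E replicate 2, 3 or 4. With library totals 0 were called higher and 5 lower in *Ypel4*+/+ cells, and 1 higher, *Slc4a5* (2.03), and 3 lower in *Ypel4*-/- cells. On that scale *Slc26a1* stood at 0.012 in *Ypel4*+/+ and *Slc4a2* at −0.91 in *Ypel4*-/- cells. *Slc4a5*, a sodium bicarbonate cotransporter, had 53 counts in all.

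The list of 14 other aquaporins and Rh family channels held *Aqp9*, a channel for water and glycerol, and *Rhd*, the Rh protein that partners *Rhag*. *Aqp9* went from 99.9 ± 24.4 to 343 ± 5.28 CPM in *Ypel4*+/+ and in the mutant from 88.7 ± 12.2 to 349.5 ± 20.5 CPM (SD, n = 4 each). Its log2 fold change was 3.06 and 3.40 with TMM and 1.79 and 1.98 with library totals, called in all 4 fits, while *Aqp1* fell on the latter scale. *Rhd* was called higher with TMM (0.51 and 0.61) and lower with library totals (−0.78 and −0.81), unlike *Rhag*, which was higher under both. The third gene tested, *Mip*, was called lower with library totals in *Ypel4*+/+ cells (−3.27, edgeR adjusted p = 0.007763) and stood at −0.82 (adjusted p = 0.3489) in *Ypel4*-/- cells.

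Partners of band 3 in the membrane each had at least 10 counts over the 16 libraries, 21 of 21 in all. The lowest was *Slc2a1*, a glucose transporter, with 13 counts, which was not tested in *Ypel4*+/+ cells. Of 20 tested there, 16 were called higher and 1 lower with TMM, against 26.4% and 32.1% of all genes, with a median log2 fold change of 1.18 against −0.19 for all genes. In *Ypel4*-/- cells 18 of 21 were called higher and 1 lower, against 29.5% and 31.5% of all genes, with a median of 1.36 against −0.09. With library totals 6 were called higher and 9 lower in each genotype, against 10.4% and 60.3% of all genes in *Ypel4*+/+ and 11.2% and 60.9% in *Ypel4*-/- cells, with medians of −0.10 and −0.06 against −1.45 and −1.47. The 6 that were higher under both scalings in each genotype were *Epb4.1*, *Mpp1*, *Add3*, *Epb4.2*, *Kel* and *Cd47*.

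*Epb4.1*, which encodes protein 4.1, rose most, from 2677 ± 344 to 9922 ± 715 CPM (SD, n = 4 each) in *Ypel4*+/+ cells, with log2 fold changes of 3.17 and 3.50 with TMM and 1.89 and 2.08 with library totals in *Ypel4*+/+ and *Ypel4*-/- cells. *Epb4.2*, for protein 4.2, which binds band 3 directly, had values of 1.99 and 2.22 with TMM and 0.71 and 0.80 with library totals. *Mpp1*, for the p55 protein that joins protein 4.1 to glycophorin C, had 2.36 and 2.37 with TMM and 1.08 and 0.95 with library totals. *Add3*, an adducin, had 2.32 and 2.33 with TMM and 1.03 and 0.92 with library totals, at a level of 8.76 CPM in *Ypel4*+/+ Poly-E.

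*Kel*, the Kell blood group protein, had TMM values of 1.73 and 1.89, and *Cd47*, the marker of self in the Rh complex, 1.55 and 1.80. With library totals these were smaller, at 0.45 and 0.46 for *Kel* and 0.27 and 0.38 for *Cd47*. The ankyrin gene *Ank1*, by contrast, was called higher with TMM (0.83 and 1.11) and lower with library totals (−0.45 and −0.30). The spectrin gene *Sptb* was also called higher with TMM (0.29 and 0.54) and lower with library totals (−0.99 and −0.88). Its TMM call in *Ypel4*+/+ cells was at the threshold (edgeR adjusted p = 0.04992). *Tpm3*, a tropomyosin, was the 1 gene called lower with TMM (−1.58 in each genotype). *Ank1*, *Sptb*, *Tpm3*, *Slc2a1* and *Mip* were named after their values were seen.

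Between genotypes edgeR and DESeq2 each called 0 of 20 partners in Poly-E, and likewise 0 of 20 in Ortho-E. At an unadjusted p under 0.05 with edgeR there were 0 in Poly-E and 1, *Icam4*, in Ortho-E. For all genes these numbers were 271 of 12395 and 387 of 10521. The other 3 lists also had 0 calls and 0 genes at an unadjusted p under 0.05 in these comparisons. Tested in Poly-E were 3 carbonic anhydrases, 10 exchangers and 4 aquaporins and Rh channels, and in Ortho-E 1, 6 and 2.

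The genes whose course over the 16 libraries was most like that of each member were found from the root mean square difference of log2 CPM, centred on each gene's mean, among 5061 genes. For *Slc4a1* they were *Vcp* (0.050), *Pafah1b1* (0.052) and *Ermap* (0.058), the last encoding an erythroid membrane protein. For *Rhag* they were *Stradb* (0.060), the heme synthesis gene *Urod* (0.073) and *Kel* (0.080). Nearest to *Aqp1* were *Rpl7a* (0.090), *Fth1* (0.12), which encodes ferritin heavy chain, and *Psma3* (0.12), and nearest to *Car2* were *Cenpq* (0.12), *Fis1* (0.12) and *St3gal6* (0.13). *Wdr76* (0.19) and *Hnrnpf* (0.20) were close to *Car1*. *Car13*, with few counts, had no close match, the nearest being *Rnh1* (0.43), *Arl6ip5* (0.44) and *Zak* (0.44). *Hnrnpf* went from 492 ± 91.4 to 50.6 ± 6.73 CPM in *Ypel4*+/+ cells (SD, n = 4 each), as *Car1* did from 172 ± 31.1 to 19.0 ± 4.13 CPM (SD, n = 4 each).

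Among the members themselves *Slc4a1* and *Rhag* were closest, at 0.19, with 219 genes nearer to *Slc4a1* than *Rhag* was. *Car2* and *Rhag* were at 0.21, with 54 genes nearer to *Car2*. *Car1* stood far from both neighbours of its cluster, at 1.72 from *Car2* and 1.14 from *Car13*.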

How the data were processed

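RNA was sequenced from 16 libraries (TruSeq RNA v2, a kit that does not mark strand). The authors ran nf-core/rnaseq on GRCm38 and deposited raw counts from featureCounts 1.6.4, as read pairs on the exons of 46078 genes, without use of strand. Groups and replicate numbers came from the titles. The labels do not say that replicates were separate mice, and p-values measure only the spread between libraries. The 7 genes and all lists were chosen with earlier results of these data known.

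CPM was computed from library totals. Tests used edgeR 4.0.16 in R 4.3.3 (quasi-likelihood, robust, TMM) on genes whose counts summed to 10 or more within a fit. P-values were adjusted by Benjamini-Hochberg. The fits were tested on simulated counts in which each gene, apart from a set of changed genes, had the same mean share in all libraries. That test did not cover the shift in scale between Poly-E and Ortho-E. Named were the 7 genes, *Ypel4*, up to 6 called genes per list with the largest changes, and the 3 genes most like each member (mean of at least 10 CPM, log2 of CPM plus 0.5). A few of the genes so named are not reported here. Alternatives were DESeq2 1.42.0, its size factors, library totals, other filters, all 16 libraries, a replicate block, a term for replicates 1 and 2 against 3 and 4, globin genes removed, and leaving out single libraries. Promoter and transcript sequences were compared in Python 3.11.15.

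Same-numbered Poly-E and Ortho-E libraries share a further number in the deposited names, read here as the mouse. Their deviations from group means correlated at 0.487 to 0.651 in *Ypel4*+/+ and 0.0859 to 0.565 in *Ypel4*-/- cells over 4835 genes. Poly-E and Ortho-E libraries of different numbers correlated at −0.496 to 0.434 and −0.467 to 0.288. Closest to their own number were 4 of 4 in *Ypel4*+/+ and 3 of 4 in *Ypel4*-/- cells. Between genotypes, Poly-E libraries of the same number correlated at 0.233 to 0.642 and those of different numbers at −0.581 to 0.601. Only 1 of 4 was closest to its own number. The labels give no pairing of mice between genotypes, and the numbers were not taken as pairs in the main fits. The main fits between populations and of the interaction also held no term for the mouse. They thus treat 2 libraries read as the same mouse as independent, and the replicate block was an alternative only.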

Additional observations from a re-analysis of the deposited data

Results flagged for a closer look

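*Car13* was flagged in 2 groups of 4 libraries because 1 library stood apart from the others by Dixon's criterion. In *Ypel4*+/+ Ortho-E replicate 1, with 1 count (0.256 CPM), the gap to the nearest library made up 0.831 of the range, just over the limit for 4 libraries. In *Ypel4*-/- Ortho-E replicate 1 was the only library with a count (3, or 0.979 CPM), so the gap made up 1 of the range. With counts of 0 to 5 in these libraries, single reads set both values. Of 24 combinations of gene and group examined, chance flags about 1 in 20.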

How the results depend on the processing

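Scaling by library totals mattered most between populations. It left *Car2* without a call (0.16 in *Ypel4*+/+ and 0.056 in *Ypel4*-/- cells on the log2 scale), and it turned *Aqp1* (−1.10 and −1.19) and, in *Ypel4*+/+ cells, *Car13* (−0.94). With it the exchangers had 0 higher and 5 lower in *Ypel4*+/+ and 1 and 3 in *Ypel4*-/- cells, the aquaporins and Rh channels 1 and 2, and 1 and 1, and the band 3 partners 6 and 9 in both. DESeq2 called 1 exchanger higher in *Ypel4*-/- cells. *Aqp1* was called higher in *Ypel4*+/+ cells with DESeq2's size factors (0.33), filterByExpr (0.37) and replicates 3 and 4 only (0.17), and in *Ypel4*-/- cells with filterByExpr (0.36), the replicate block (0.24), the term for replicate sets (0.24) and replicates 3 and 4 only (0.31). The *Car13* call in *Ypel4*-/- cells was lost with DESeq2 (−2.15) and with replicates 1 and 2 only (−0.84). The fits on replicates 1 and 2 or 3 and 4 only were chosen after seeing the data. The causes of these changes were not tested.

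Between genotypes, the count of called genes in Poly-E was 2 with DESeq2, 4 without a filter, 3 with all 16 libraries, 4 with the replicate block, 3 with the set term, 7 with replicates 1 and 2 only and 3 with replicates 3 and 4 only. In Ortho-E it was 5 without a filter, 15 with the replicate block, 7 with replicates 1 and 2 only and 7 with replicates 3 and 4 only. For the interaction it was 1 with DESeq2 and 1 with the replicate block. The block changed no other call of a member than that of *Aqp1* above. Uncalled members changed sign with library totals (Poly-E *Car2* 0.0042 and *Aqp1* 0.0025, Ortho-E *Car1* 0.012) and with replicates 3 and 4 only (Poly-E *Car2* 0.060, Ortho-E *Slc4a1* −0.00061, *Car1* 0.12 and *Car2* 0.015).

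With each library left out in turn, called genes numbered 1 to 2 in Poly-E (2 without *Ypel4*-/- replicate 1) and 0 to 1 for the interaction (1 without *Ypel4*+/+ Ortho-E replicate 1). Between populations the log2 fold change ran from 0.092 to 0.37 for *Aqp1* in *Ypel4*+/+, from 0.13 to 0.32 for *Aqp1* in *Ypel4*-/- and from −6.12 to −1.52 for *Car13* in *Ypel4*-/- cells. Between genotypes it ran from −0.18 to 0.094 for *Car2* and −0.15 to 0.027 for *Aqp1* in Poly-E, and from −0.024 to 0.054 for *Slc4a1* and −0.28 to 0.11 for *Car1* in Ortho-E. For the interaction it ran from −0.20 to 0.054 for *Car2*, −0.19 to 0.0077 for *Aqp1* and −0.034 to 0.13 for *Rhag*. In Ortho-E, where same-numbered libraries of the 2 genotypes correlated at −0.135 to 0.339 and 2 of 4 were closest to their own number, the numbers were not taken as pairs. Depth limits *Car13* and *Car4*.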
